A study of Mus musculus with 2 samples.

Results

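The genes described here are 10 regulators of the step from G1 into S phase: the D-type cyclins Ccnd1, Ccnd2 and Ccnd3, their kinases Cdk4 and Cdk6, the inhibitors Cdkn1b, Cdkn2a and Cdkn2c, the retinoblastoma gene Rb1, and Ezh2, a histone methyltransferase. They were taken by symbol from the 28692 genes of the count tables, and all 10 were found. The study asks about BAF60C in type 2 diabetes; BAF60C is the product of Smarcd3 and part of nucleosome-remodelling BAF complexes. Mouse pancreatic islets were dispersed and captured as single cells in 2 droplet libraries. One library is labelled BcBKO, which the series describes as an ablation specific to beta cells and associates with Pdx1-cre. In such mice Cre follows Pdx1, which is active in pancreatic progenitors and later mainly in beta cells. The other is labelled flox/flox, a genotype in which lox sites flank an allele. That Smarcd3 is the ablated gene is inferred from the title. The labels give neither the age and strain of the mice nor whether the flox/flox mice carried a Cre. Each library was pooled from at least 3 mice, so each group is 1 sample, and no test between groups was possible. Intervals below are 95% intervals that cover counting error only, not differences between mice or preparations.

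D-type cyclins are made in response to growth signals and bind CDK4 or CDK6. The active pair phosphorylates the RB1 protein, which then releases E2F transcription factors and so allows the genes of DNA replication to be transcribed. Inhibitors of the INK4 family, among them p16INK4a (from Cdkn2a) and p18INK4c (from Cdkn2c), bind the kinases themselves, while p27KIP1 (from Cdkn1b) binds cyclin-kinase complexes. In adult mice beta cells divide rarely. From work in mice, cyclin D2 and CDK4 are known to be needed for their growth after birth, EZH2 to hold the Cdkn2a locus silent in young beta cells, and menin to maintain transcription of Cdkn1b and Cdkn2c in endocrine cells.

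The library labelled BcBKO had 10775 deposited barcodes with 178647270 UMIs (counted RNA molecules), and the flox/flox library had 9438 with 167670996. After filters, 8504 and 7568 barcodes remained, and 23 barcode sequences occurred in both libraries. Smarcd3 itself had 71 UMIs in BcBKO-labelled beta cells and 45 in flox/flox beta cells, or 0.610 and 0.374 CPM (counts per 1000000 UMIs of the class; ratio 1.63, interval 1.11 to 2.42). This direction goes against the label. The labels do not say which exons were flanked. Tags from the 3′ end do not directly show a deletion elsewhere in the gene. The first library is therefore referred to as labelled BcBKO, and every direction below rests on that label. Cells were placed in 6 classes by the hormone or marker UMIs they held: beta (3058 BcBKO-labelled cells and 2750 flox/flox cells), alpha (714 and 415), delta (371 and 281), endothelial (1516 and 1763), a class with Rgs5 and Pdgfrb (665 and 794) and macrophage (367 and 463). Among summed markers that the rule did not use, those of the class's own type were highest in beta, alpha and endothelial cells of both libraries. In delta cells the beta markers, which include Iapp, summed to more than the delta markers, at 23311 against 5388 CPM in the library labelled BcBKO and 22490.1 against 5566 CPM in the flox/flox library, and 1 of 5 delta markers was at 0 in each. BcBKO-labelled macrophages held 6519 CPM of macrophage and 7613 CPM of beta markers, and flox/flox macrophages 7549 and 4591 CPM. The class with Rgs5 and Pdgfrb was meant to hold mural cells, the contractile cells around vessels, but 498 of its 665 BcBKO-labelled barcodes and 569 of its 794 flox/flox barcodes also met the endothelial rule. Its endothelial markers summed to 10460 and 9698 CPM against 2246 and 2978 CPM for mural markers, so it is called the Rgs5/Pdgfrb class here, and values are also given for its 163 and 223 barcodes that met no other rule. In those, mural markers summed to 5952 and 7616 CPM and endothelial markers to 654 and 607 CPM. Acinar cell RNA, summed over 7 markers, was lower in every class of the library labelled BcBKO, for example 22.3 against 133.7 CPM in beta cells and 121 against 1002 CPM in endothelial cells. Fewer transcripts per cell and fewer transcribing cells cannot be told apart in summed counts.

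The library counted RNA at its 3′ end, so transcripts that begin at different start sites of a gene but share their last exon are counted together. This matters for Cdkn2c, for Cdkn2a and for Ccnd3, which each have 2 starts in RefSeq. Cdkn2a (ENSMUSG00000044303; mm10 chromosome 4, 89274471 to 89294653, minus strand) has an upstream start, known to give p19ARF, an activator of the p53 pathway, and a downstream start, known to give p16INK4a. Cdkn2c (ENSMUSG00000028551; mm10 chromosome 4, 109660876 to 109667189, minus strand) also has a pair of starts in RefSeq and overlaps no other annotated gene. Windows of Cdkn2a and Cdkn2c run from 250 bases before to 50 after the start, on GRCm38.p6. They are shown because the counts of these genes cannot be assigned to one start, and that of Ezh2 because it holds a word of the E2F motif. Of all 10 windows found for the members, only that of Ezh2 and that of Cdkn2a start 1 hold such a word. Capitals mark the words TTTCCCGC, TTTCGCGC, TTTGCCGC and TTTGGCGC (E2F) and GGGCGG (the GC box that Sp1 binds), searched on both strands.
Cdkn2c start 1 (chr4:109666707-109667006, minus strand): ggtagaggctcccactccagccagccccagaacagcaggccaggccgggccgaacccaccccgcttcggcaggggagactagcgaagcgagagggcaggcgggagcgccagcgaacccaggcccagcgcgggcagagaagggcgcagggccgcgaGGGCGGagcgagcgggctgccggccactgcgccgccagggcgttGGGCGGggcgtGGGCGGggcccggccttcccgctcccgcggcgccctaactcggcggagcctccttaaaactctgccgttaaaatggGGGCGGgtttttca
Cdkn2c start 2 (chr4:109665323-109665622, minus strand): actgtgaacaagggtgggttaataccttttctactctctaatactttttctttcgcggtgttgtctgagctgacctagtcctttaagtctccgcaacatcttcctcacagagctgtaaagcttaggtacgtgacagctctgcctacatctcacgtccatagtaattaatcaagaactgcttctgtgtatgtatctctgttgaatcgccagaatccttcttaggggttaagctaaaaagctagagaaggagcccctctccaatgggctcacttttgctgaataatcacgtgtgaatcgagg
Cdkn2a start 1 (chr4:89294570-89294869, minus strand): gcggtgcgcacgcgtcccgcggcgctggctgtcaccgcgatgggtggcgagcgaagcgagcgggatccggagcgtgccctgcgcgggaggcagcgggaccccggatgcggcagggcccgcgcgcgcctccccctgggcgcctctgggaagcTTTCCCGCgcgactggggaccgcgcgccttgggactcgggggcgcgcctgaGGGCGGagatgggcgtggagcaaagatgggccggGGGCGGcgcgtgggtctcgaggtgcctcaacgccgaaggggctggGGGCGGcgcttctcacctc
Cdkn2a start 2 (chr4:89282143-89282442, minus strand): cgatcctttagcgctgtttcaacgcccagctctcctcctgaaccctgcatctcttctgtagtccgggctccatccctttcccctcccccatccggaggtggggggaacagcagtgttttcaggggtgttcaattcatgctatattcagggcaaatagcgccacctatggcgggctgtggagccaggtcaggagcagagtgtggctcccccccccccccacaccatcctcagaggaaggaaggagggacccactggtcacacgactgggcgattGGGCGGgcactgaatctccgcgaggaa
Ezh2 (chr6:47594981-47595280, minus strand): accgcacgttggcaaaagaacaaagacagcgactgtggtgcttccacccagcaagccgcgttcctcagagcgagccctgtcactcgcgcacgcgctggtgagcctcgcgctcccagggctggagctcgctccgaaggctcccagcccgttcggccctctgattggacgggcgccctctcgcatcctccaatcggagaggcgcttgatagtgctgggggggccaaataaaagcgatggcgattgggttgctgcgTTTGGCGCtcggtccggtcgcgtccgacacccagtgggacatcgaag
An E2F word began at base 152 of the window of Cdkn2a start 1, as TTTCCCGC, and at base 254 of the Ezh2 window, as TTTGGCGC, counted from 1 at the 5′ end. Such a word was in 2.26% of 32851 RefSeq mouse promoter windows of this length. The GC box occurred 4 times at Cdkn2c start 1 and 0 times at start 2, and it was in 35.7% of all windows. The GC content of these 2 windows was 73.3% and 44%. A match describes the letters only. RefSeq windows were found for 7 of the 10 genes, and Ccnd1, Ccnd2 and Rb1 had none in the table used.

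Ccnd2 was the D-type cyclin with the most UMIs in all 6 classes of both libraries, and in the endocrine classes it made up most of them. Each molecule is tagged once at its 3′ end, so UMI counts do not scale with transcript length, although the efficiency of tagging can differ between genes. In beta cells Ccnd2 took 84.9% of the D-type cyclin UMIs in the library labelled BcBKO (interval 84.6 to 85.2) and 84.8% in the flox/flox library (84.5 to 85.1). Ccnd1 took 12.2% and 12%, and Ccnd3 2.94% and 3.19%. The shares of the 2 libraries were thus alike within counting error for Ccnd1 and Ccnd2. In alpha cells Ccnd2 took 88.4% and 86.5%, and in delta cells 74.1% and 69.4%. The split was more even in vessel cells, where Ccnd2 and Ccnd1 took 46.3% and 39.8% in BcBKO-labelled endothelial cells and 46.5% and 38.3% in flox/flox endothelial cells. The widest gap between libraries was in macrophages, where Ccnd2 took 61.4% (57.9 to 64.8) of BcBKO-labelled and 48.6% (45.4 to 51.9) of flox/flox D-type cyclin UMIs. In macrophages that met no other class rule these shares were 44.7% (39.3 to 50.3) and 37.0% (32.7 to 41.4), and in the flox/flox ones Ccnd1 took more, at 43.3%.

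**Figure D1:**
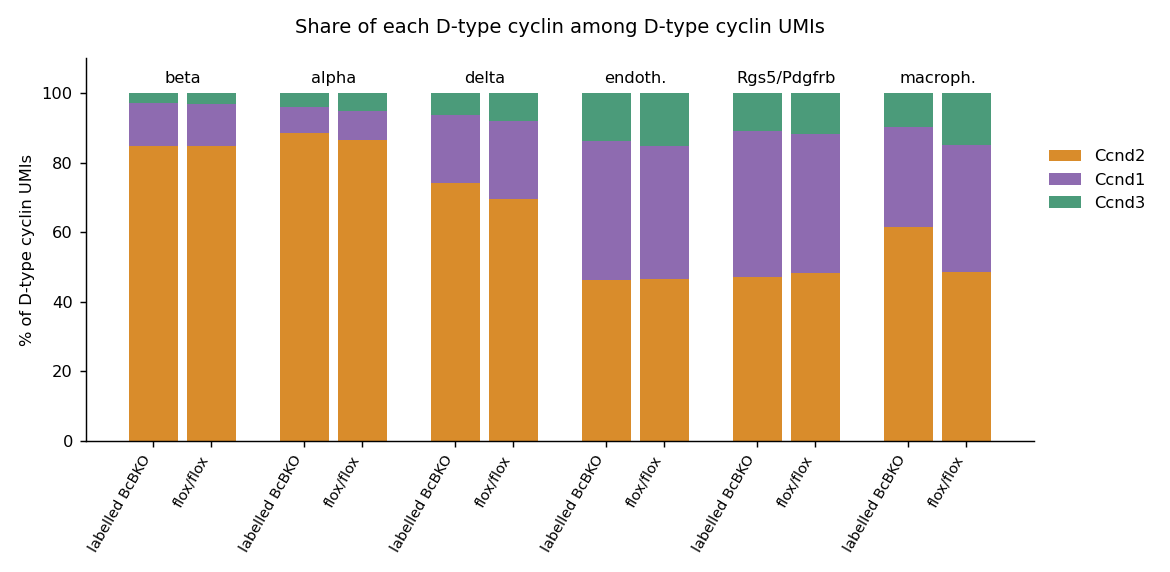
Stacked bars give the percentage of D-type cyclin UMIs from Ccnd2, Ccnd1 and Ccnd3 in each cell class, with the library labelled BcBKO left of flox/flox in each pair. Ccnd2 fills 84.9% and 84.8% of the bars of beta cells and 46.3% and 46.5% of those of endothelial cells.

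Ccnd2 (ENSMUSG00000000184) lies on the minus strand of mm10 chromosome 6, from 127125162 to 127152193. Beta cells yielded 47891 Ccnd2 UMIs in the library labelled BcBKO and 47449 in the flox/flox library, or 411 and 395 CPM. The ratio of BcBKO-labelled over flox/flox CPM was 1.04 (1.03 to 1.06). It was close to the median of all 12294 genes with at least 100 UMIs over both libraries in beta cells, a log2 ratio of 0.07, against 0.06 for Ccnd2, and 47.1% of those genes had a lower ratio. With hormone and mitochondrial genes left out of the totals the ratio was 0.993. Beta cells spend 68.2% and 69.95% of their UMIs on islet hormones, so this second scale changes the order of the classes. On totals of all UMIs, Ccnd2 was highest in alpha cells (852 and 754 CPM), followed by delta cells (552 and 459), the Rgs5/Pdgfrb class (475 and 452), beta cells, endothelial cells (392.1 and 335) and macrophages (209 and 147), in that order in both libraries. The intervals of neighbours in this order overlapped for delta cells and the Rgs5/Pdgfrb class of the flox/flox library only. Without hormone and mitochondrial UMIs, beta cells had 1412 and 1422 CPM and alpha cells 1442 and 1334 CPM, both well above delta cells at 875 and 720 CPM and macrophages at 245 and 164 CPM. Which of alpha and beta cells was higher then differed between the libraries.

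Nearly all beta cells held Ccnd2 transcripts. With every cell thinned to 10000 UMIs, 95.2% of 3058 BcBKO-labelled and 95.3% of 2750 flox/flox beta cells had at least 1, against 99.1% and 99.5% unthinned at median depths of 33171.5 and 38461.5 UMIs. The mean was 4.13 and 3.93 UMIs per thinned cell, the median 4 in both, and the highest cell had 24 and 21. The variance over the mean was 1.79 and 1.62, where sampling of an equal level in every cell would give about 1. For Ccnd3 the same quotient was 1.00 and 1.01 at means of 0.149 and 0.159 UMIs. For Ccnd1 it was 1.32 and 1.23 at means of 0.573 and 0.564 UMIs. The quotient also depends on the mean, so it does not rank these genes by how much they vary between cells.

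**Figure D2:**
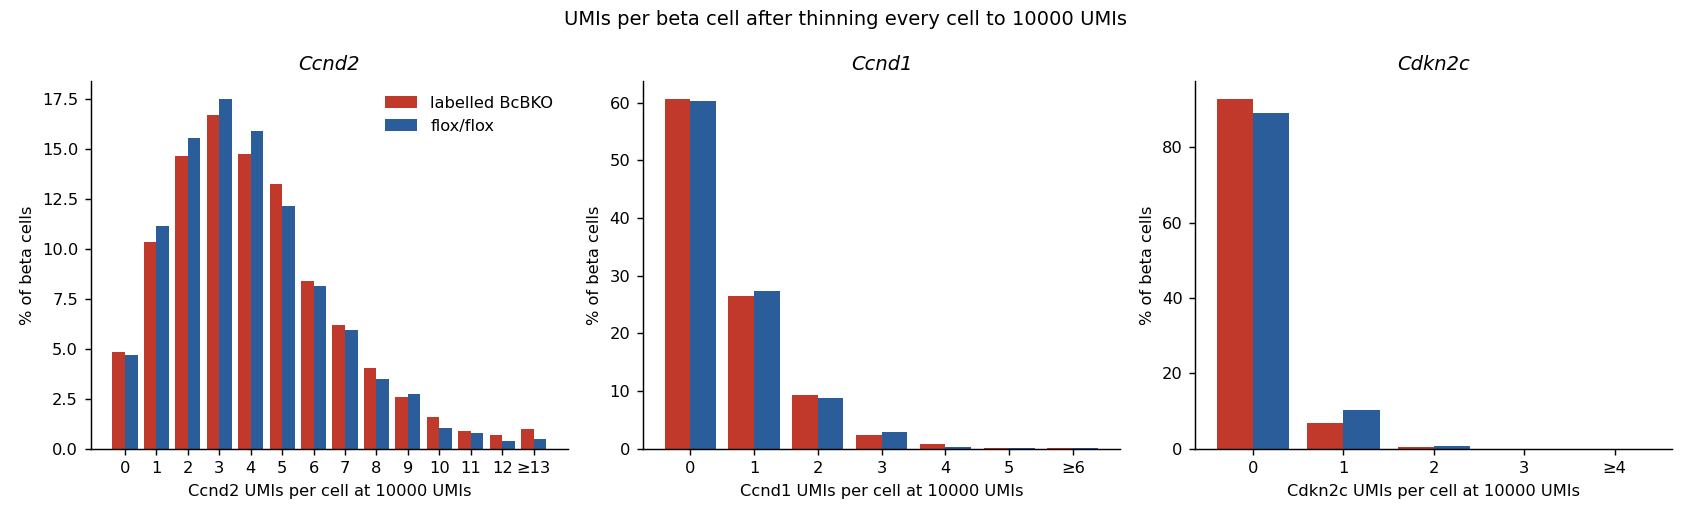
Bars give the percentage of beta cells with each number of Ccnd2, Ccnd1 or Cdkn2c UMIs after every cell was thinned to 10000 UMIs, the library labelled BcBKO left of flox/flox. Ccnd2 has its middle at 4 UMIs in both libraries, while most cells hold 0 Cdkn2c UMIs, 2841 of 3058 BcBKO-labelled and 2446 of 2750 flox/flox cells.

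Outside beta cells, the ratio of Ccnd2 was above 1 in all the other classes: 1.13 in alpha cells (1.09 to 1.17), 1.20 in delta cells (1.13 to 1.28), 1.17 in endothelial cells (1.12 to 1.22), 1.05 in the Rgs5/Pdgfrb class (1.00 to 1.11) and 1.42 in macrophages (1.249 to 1.62). Only the last passed the size limit used here, a ratio at least 25% above 1 (higher) or at least 20% below it (lower). In macrophages 3 of the 7 members with at least 100 UMIs passed it, Ccnd2 as higher and Ccnd3 and Rb1 as lower. Of all 5310 genes tested there 26.8% passed, 5.82% as higher and 21.0% as lower. The macrophage value rests in part on barcodes with RNA of other types: in the 331 BcBKO-labelled and 422 flox/flox macrophages that met no other class rule, Ccnd2 had 83.4 and 75.3 CPM, a ratio of 1.11, and with every macrophage weighted equally the ratio was 1.10. Insulin UMIs in macrophages would bring 14.1% and 15.97% of their Ccnd2 UMIs if they came from free RNA of beta cells. In the Rgs5/Pdgfrb barcodes that met no other rule, Ccnd2 had 655 CPM in the library labelled BcBKO and 742 CPM in the flox/flox library, a ratio of 0.883, so the direction turned there.

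Ccnd1 (ENSMUSG00000070348; mm10 chromosome 7, 144929931 to 144939925, minus strand), the cyclin D1 gene, was highest in vessel cells. In endothelial cells it had 337 CPM in the library labelled BcBKO and 276 CPM in the flox/flox library, a ratio of 1.22 (1.17 to 1.28), under the size limit. In endothelial cells that met no other class rule the values were 272 and 205 CPM, and the ratio of 1.33 was past that limit. Of 8513 genes in those cells 14.3% passed it. In the Rgs5/Pdgfrb class it had 426 and 373 CPM (1.14), in delta cells 147 and 149 CPM (0.988), in macrophages 98.1 and 110.1 CPM (0.891), in alpha cells 72.2 and 71.8 CPM (1.01) and in beta cells 59.1 and 55.9 CPM (1.06, 1.02 to 1.09). That order held in both libraries with no overlap between the intervals of neighbours. Without hormone and mitochondrial UMIs, beta cells moved above alpha cells and macrophages, at 203 and 201 CPM. In flox/flox macrophages 1 barcode held 39 of the 337 Ccnd1 UMIs, and with the barcode richest in Ccnd1 left out of each library the macrophage ratio was 0.949.

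Ccnd3 (ENSMUSG00000034165; mm10 chromosome 17, 47505051 to 47599691, plus strand), the cyclin D3 gene known for its part in lymphocyte growth, was highest in endothelial cells (118 and 110.1 CPM) and the Rgs5/Pdgfrb class (109 and 109 CPM), which overlapped, and lowest in beta cells (14.3 and 14.9 CPM). Alpha, delta and macrophage cells lay between, from 33.3 to 53.3 CPM over both libraries, with overlapping intervals of neighbours. That order is on totals of all UMIs. Without hormone and mitochondrial UMIs beta cells had 49.0 and 53.6 CPM. Macrophages were then lowest, at 39.1 and 50.2 CPM, with intervals that overlapped those of beta cells. The Ccnd3 ratio was within the size limits in 5 classes. In macrophages the Ccnd3 ratio was 0.744 (0.555 to 0.990), with 77 UMIs in the library labelled BcBKO and 137 in the flox/flox library. In Rgs5/Pdgfrb barcodes that met no other rule Ccnd3 was lower past the limit, with 72.3 and 98.1 CPM from 50 and 112 UMIs. The ratio was 0.737 there, without an interval, against 0.998 in the whole class. It was the 1 of 6 members past the limit in those barcodes, where 26.7% of 3091 genes passed.

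**Figure D3:**
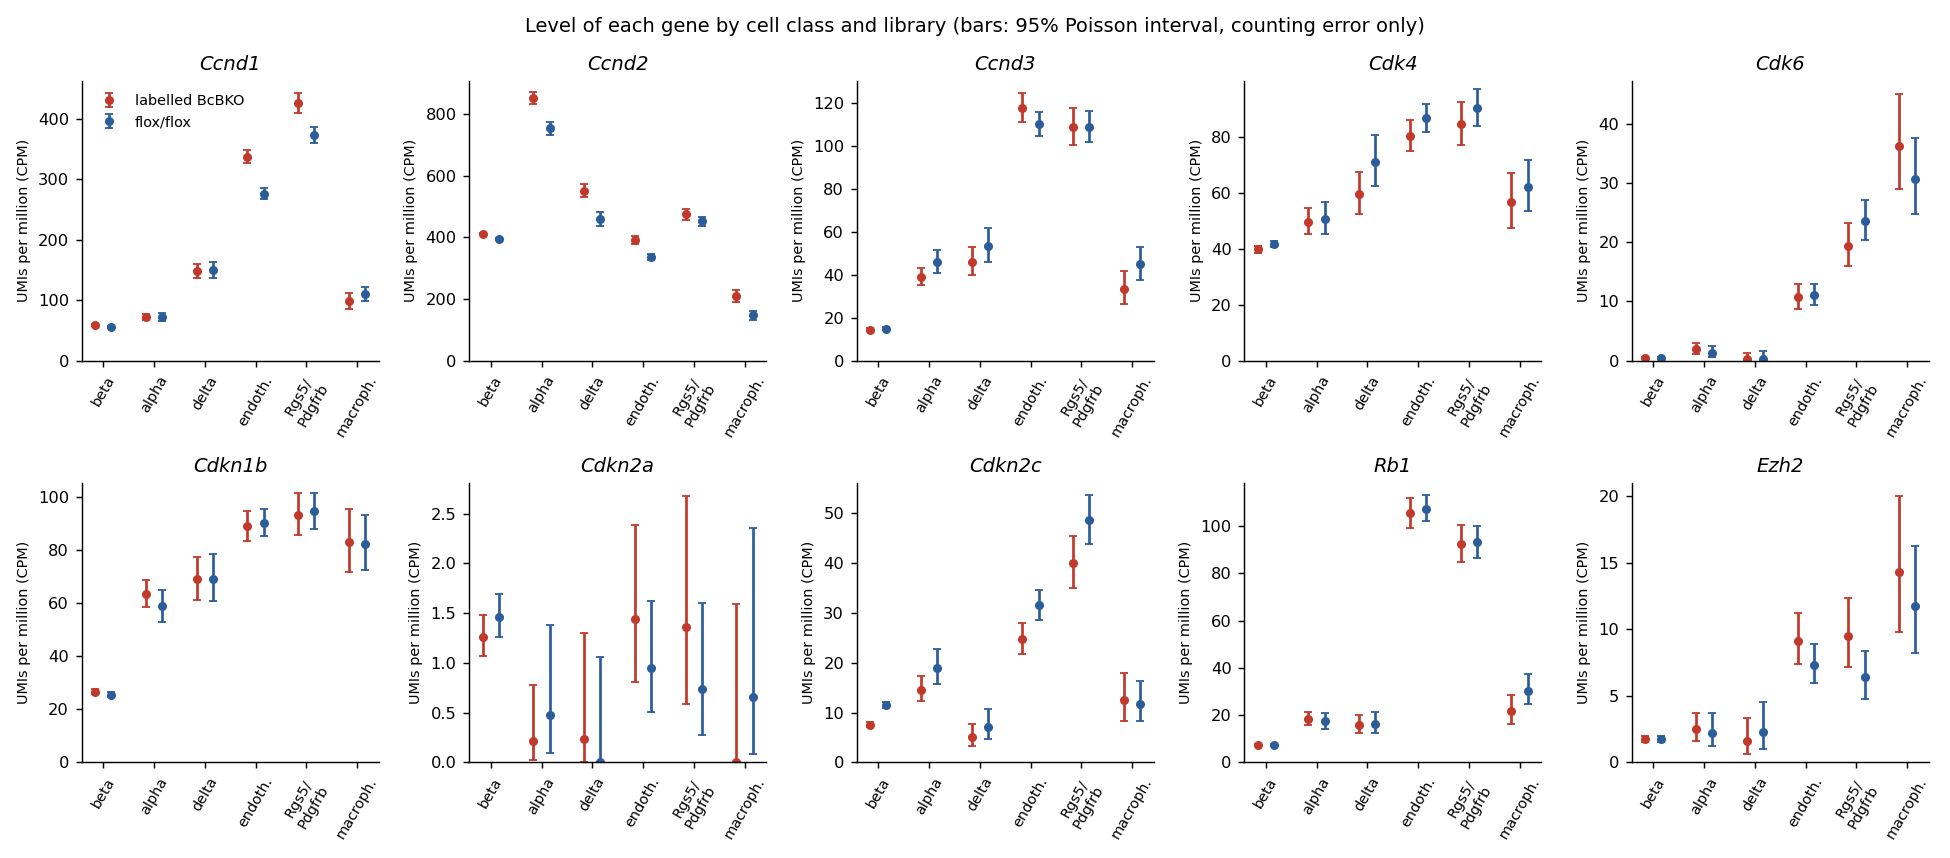
Points give the CPM of each gene in each cell class, the library labelled BcBKO left of flox/flox, with 95% Poisson intervals as bars and axes that start at 0. Ccnd2 is highest in alpha cells (852 and 754 CPM), Ccnd1 in the Rgs5/Pdgfrb class (426 and 373 CPM) and Cdk6 in macrophages (36.3 and 30.7 CPM), an order that for Cdk6 turns in flox/flox barcodes that met no other rule (48.2 CPM in the Rgs5/Pdgfrb class and 33.9 CPM in macrophages).

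Cdk4 (ENSMUSG00000006728, mm10 chromosome 10, 127063534 to 127067920, plus strand) was present in all classes of both libraries, at levels that differed between classes. It ran from 39.7 CPM in BcBKO-labelled beta cells to 90.2 CPM in the flox/flox Rgs5/Pdgfrb class. All 6 ratios were below 1, between 0.838 and 0.978, and none passed the size limit. In Rgs5/Pdgfrb barcodes that met no other rule the ratio was 1.16, with 96.9 and 83.2 CPM from 67 and 95 UMIs. No interval is given for that ratio, so a turn of direction is not shown. Among whole classes the interval excluded 1 in beta cells only (39.7 and 41.7 CPM, ratio 0.952, 0.915 to 0.991). On totals without hormone and mitochondrial UMIs, beta cells had the highest Cdk4 level of all classes, at 136 and 150.3 CPM, and in both libraries its interval did not overlap that of delta cells, the next.

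Cdk6 (ENSMUSG00000040274; mm10 chromosome 5, 3341485 to 3531008, plus strand), the partner kinase known from blood cells, had a different distribution. Among whole classes it was highest in macrophages, at 36.3 CPM in the library labelled BcBKO (28.95 to 44.9) and 30.7 CPM in the flox/flox library (24.8 to 37.6). The Rgs5/Pdgfrb class had 19.4 and 23.5 CPM, which overlapped the macrophage interval in the flox/flox library, and endothelial cells 10.7 and 11.05 CPM, and in endothelial cells that met no other rule it was 3.45 and 2.46 CPM. Beta cells had 61 and 50 UMIs in all, or 0.524 and 0.416 CPM, and delta cells had 1 UMI in each library. In Rgs5/Pdgfrb barcodes that met no other rule it was 30.4 and 48.2 CPM, against 43.7 and 33.9 CPM in such macrophages, so the order of these 2 classes differed between the libraries there. For Cdk4 the same beta cells held 4625 and 5014 UMIs. The Cdk6 ratio in beta cells was 1.26 (0.852 to 1.87), just past the size limit with an interval that includes 1, and it was 0.688 in beta cells at or above their library's median insulin share and 1.85 in those below it.

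Of the 10 members in beta cells, all with at least 100 UMIs, Cdkn2c was the one that was lower past the size limit and Cdk6 the one that was higher. Among all 12294 genes tested there, 12.3% passed that size in either direction, 9.66% as higher and 2.66% as lower. The median log2 ratio was 0.01 over the members and 0.07 over all genes. Counts of 2 in 10 members are therefore near the background, and the Cdkn2c ratio is described further for its size.

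**Figure D4:**
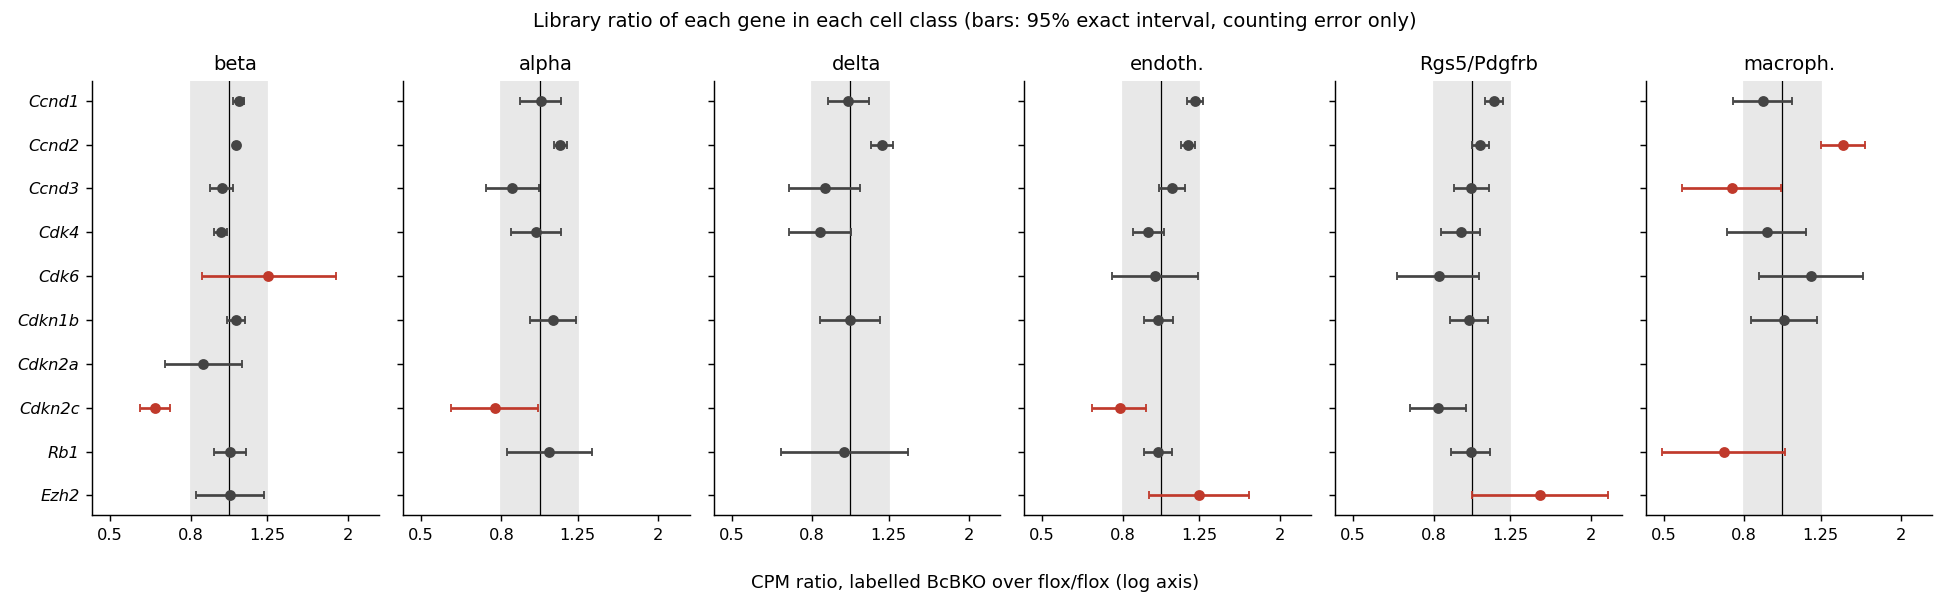
Points give the CPM ratio of the library labelled BcBKO over flox/flox for each gene in each class, on a log axis, with 95% exact intervals, the range between a ratio 20% below and 25% above 1 in grey and values past it in red. Genes with under 100 UMIs over both libraries in a class are left out, and Cdkn2c lies left of 1 in each of the 4 classes that show it. The endothelial and Rgs5/Pdgfrb classes among them share barcodes.

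Cdkn2c, the gene of p18INK4c, had 873 UMIs in BcBKO-labelled beta cells and 1387 in flox/flox beta cells. These are 7.50 CPM (7.01 to 8.01) and 11.5 CPM (10.9 to 12.2), intervals that do not overlap. The ratio was 0.650 (0.596 to 0.708), and 74 of the 12294 tested genes (0.602%) had a lower one. Fewer BcBKO-labelled beta cells held the transcript: 713 of 3058 (23.3%) against 1003 of 2750 (36.5%) unthinned, and 217 (7.10%, 6.21 to 8.06) against 304 (11.1%, 9.91 to 12.3) with every cell thinned to 10000 UMIs. The lower level did not come from a few cells, since the highest beta cell held 5 and 9 UMIs and without it the ratio was 0.650 again. It was 0.673 in beta cells at or above their library's median insulin share and 0.624 in those below it, and 0.647 without cycling cells. With every beta cell thinned to 3000 UMIs, 85 and 84 Cdkn2c UMIs were left and the ratio was 0.910, inside the size limits; in another such draw 65 of 3058 cells (2.13%) and 106 of 2750 (3.85%) held a UMI. Acinar RNA was also lower in these cells, as given above, and its part in the ratio was not tested. The acinar-rich barcodes, 3 BcBKO-labelled and 22 flox/flox, held 0 and 1 Cdkn2c UMIs among 39283 and 308995 UMIs.

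The same direction was seen in the other whole classes with enough UMIs. The endothelial and Rgs5/Pdgfrb classes among them share 498 BcBKO-labelled and 569 flox/flox barcodes, so they are not separate observations. Alpha cells had 14.6 CPM in the library labelled BcBKO and 19.0 CPM in the flox/flox library (136 and 121 UMIs; ratio 0.769, 0.597 to 0.991), and this was the 1 of 7 members with at least 100 UMIs past the size limit. Of all 8780 genes tested there 18.2% passed, 15.3% as higher and 2.94% as lower. One flox/flox alpha barcode held 12 of the 121 UMIs, and with the richest barcode left out of each library the ratio was 0.815, no longer past the limit. With every alpha cell thinned to 3000 UMIs it was 1.05, so the direction in alpha cells is not settled at this depth. Endothelial cells had 24.7 and 31.5 CPM (257 and 431 UMIs; 0.785, 0.670 to 0.918), and there Cdkn2c, as lower, and Ezh2, as higher, were the 2 of 9 members past the size limit. Of all 10463 genes tested there 12.8% passed, 6.12% as higher and 6.66% as lower. In endothelial cells that met no other rule Cdkn2c had 17.1 and 19.7 CPM, a ratio of 0.868. The Rgs5/Pdgfrb class had the most, with 39.9 and 48.6 CPM (0.822, 0.696 to 0.968). Its barcodes that met no other rule had 95.5 CPM from 66 BcBKO-labelled UMIs and 83.2 CPM from 95 flox/flox UMIs. The ratio of 1.15 is on the other side of 1, but it rests on few UMIs and has no interval. A turn of direction in the barcodes with the clearest mural markers is therefore not shown. Delta cells had 22 and 25 UMIs and macrophages 29 and 36 UMIs, under the minimum of 100 over both libraries.

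Genes beside Cdkn2c on chromosome 4, a set looked at after its ratio was seen, were nearer to 1 in beta cells on the side of lower coordinates. Eps15, Ttc39a and Rnf11 had ratios of 1.02, 1.01 and 1.05, and Faf1, which starts next to Cdkn2c at higher coordinates, had 1.05. Elavl4 had 22.0 and 28.7 CPM, a ratio of 0.767, and Agbl4 3.74 and 4.402 CPM, a ratio of 0.849. The value of Cdkn2c was the lowest of the 7.

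Cdkn1b (ENSMUSG00000003031; mm10 chromosome 6, 134920401 to 134925513, plus strand), the gene of p27KIP1, had ratios within the size limits in all 6 classes. Beta cells had 26.6 CPM in the library labelled BcBKO and 25.5 CPM in the flox/flox library, a ratio of 1.04 (0.991 to 1.10). Over the 6 classes the ratios ran from 0.985 to 1.08, and every interval included 1. With cells thinned to 3000 UMIs the alpha ratio was 1.70, from 157 and 54 UMIs. In another such draw 108 of 687 BcBKO-labelled alpha cells (15.7%) and 58 of 402 flox/flox ones (14.4%) held a Cdkn1b UMI. On totals without hormone and mitochondrial UMIs its level was also nearly even between classes, from 91.4 to 109 CPM in the library labelled BcBKO and from 92.0 to 108 CPM in the flox/flox library. Of the known menin targets among the members, Cdkn1b and Cdkn2c thus had ratios of 1.04 and 0.650 in beta cells, and the menin gene Men1 itself had 9.39 and 8.60 CPM, a ratio of 1.09.

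Cdkn2a transcripts were rare. Beta cells held 147 UMIs in the library labelled BcBKO and 176 in the flox/flox library, or 1.26 and 1.46 CPM, a ratio of 0.862 (0.688 to 1.08). They were spread over 138 of 3058 and 151 of 2750 cells, but 1 flox/flox beta cell held 13, and with the richest cell left out of each library the ratio was 0.918. With cells thinned to 3000 UMIs it was 0.553, from 8 and 13 UMIs. The 7 cycling flox/flox beta cells held 14 of the 176 UMIs and the 11 cycling BcBKO-labelled beta cells 1 of the 147. In the other classes, counts were 2 and 3 UMIs in alpha cells, 1 and 0 in delta cells, 15 and 13 in endothelial cells, 8 and 6 in the Rgs5/Pdgfrb class, and 0 and 2 in macrophages. Taken as 3 counts of the class total, a count of 0 allows up to 1.30 CPM in BcBKO-labelled macrophages and up to 0.864 CPM in flox/flox delta cells. Without hormone and mitochondrial UMIs, beta cells had the highest level, 4.33 and 5.28 CPM, above endothelial cells at 1.58 and 1.02 CPM with no overlap of intervals.

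Rb1 (ENSMUSG00000022105; mm10 chromosome 14, 73183673 to 73325822, minus strand) was highest in endothelial cells. Endothelial cells had 105 CPM in the library labelled BcBKO and 107 CPM in the flox/flox library, and the Rgs5/Pdgfrb class 92.4 and 92.998 CPM. In the Rgs5/Pdgfrb barcodes that met no other rule it was 31.8 and 33.3 CPM, and 35.6 and 37.2 CPM without hormone and mitochondrial UMIs. Alpha cells had 18.3 and 17.3 CPM, delta cells 15.8 and 16.4 CPM and beta cells 7.34 and 7.29 CPM. The ratios were between 0.965 and 1.06 in these 5 classes, each with an interval that included 1. With cells thinned to 3000 UMIs the alpha ratio was 0.687, from 27 and 23 UMIs. In another such draw 46 of 687 BcBKO-labelled alpha cells (6.70%) and 24 of 402 flox/flox ones (5.97%) held a UMI. In macrophages the Rb1 ratio was 0.711 (0.494 to 1.01), with 50 and 93 UMIs. Without hormone and mitochondrial UMIs the 3 endocrine classes were close to each other, at 25.2 and 26.3 CPM in beta cells, 30.9 and 30.6 CPM in alpha cells and 25.1 and 25.7 CPM in delta cells, with overlapping intervals.

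Ezh2 (ENSMUSG00000029687, mm10 chromosome 6, 47530139 to 47595341, minus strand) encodes the catalytic subunit of Polycomb repressive complex 2. It had its highest level in macrophages, at 14.3 and 11.8 CPM from 33 and 36 UMIs, with intervals that overlapped those of vessel cells. On totals of all UMIs it was low in endocrine cells. Without hormone and mitochondrial UMIs beta cells had 6.01 and 6.27 CPM, endothelial cells 10.0 and 7.87 CPM and the Rgs5/Pdgfrb class 10.3 and 6.82 CPM. On that scale the beta interval overlapped both of the others in the flox/flox library only. On totals of all UMIs beta cells had 204 UMIs in the library labelled BcBKO and 209 in the flox/flox library, or 1.75 and 1.74 CPM. The Ezh2 ratio there was 1.01 (0.827 to 1.23). It was higher past the size limit in endothelial cells (9.15 and 7.32 CPM; ratio 1.2503, 0.934 to 1.67) and in the Rgs5/Pdgfrb class (9.52 and 6.40 CPM; 1.49, 1.00 to 2.21), where it was the 1 member of 9 past that limit. Of all 9543 genes tested there 13.9% passed, 5.59% as higher and 8.29% as lower. The summed level of 17 proliferation genes was also higher there, although only Cdk1 among them reached 100 UMIs, with ratios of 1.13 in endothelial cells and 1.43 in the Rgs5/Pdgfrb class. The sum was 51.0 against 22.3 CPM in endothelial cells and 74.9 against 26.1 CPM in the Rgs5/Pdgfrb class. Without barcodes that held at least 3 proliferation UMIs, the Ezh2 ratio was 1.15 in endothelial cells and 1.40 in the Rgs5/Pdgfrb class. The endothelial ratio was 1.10 in cells that met no other rule. In the Rgs5/Pdgfrb class only 5 of 56 BcBKO-labelled and 6 of 52 flox/flox Ezh2 UMIs came from such barcodes, too few for a ratio. Most barcodes of that class also met the endothelial rule, so its ratio and the endothelial one are not separate results. The part of proliferation genes in these ratios was not tested further.

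Cycling barcodes, those with at least 3 UMIs of 17 proliferation genes, numbered 63 of 8504 (0.741%) in the library labelled BcBKO and 36 of 7568 (0.476%) in the flox/flox library. Several members had other levels there than in the rest. Ezh2 had 61.7 and 62.0 CPM in cycling barcodes, against 2.59 and 2.44 CPM in the others. Cdkn2c had 45.6 and 46.2 CPM in cycling barcodes, against 9.29 and 13.5 CPM in the others. In cycling beta cells alone Cdkn2c had 27.4 and 40.7 CPM, from 16 and 17 UMIs, with intervals that overlapped. Cdk4 had 106 and 132 CPM, against 44.8 and 48.6 CPM. Ccnd2 was lower in cycling barcodes, at 349 and 244 CPM against 436 and 402 CPM. The cycling barcodes came from several classes, so these values also hold the mix of cell types. In beta cells alone, 11 and 7 cells were cycling, and Ezh2 had 23.9 and 16.8 CPM in them, from 14 and 7 UMIs.

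The genes around the members were taken from a list of 33 other G1 and S phase genes, of which 30 had at least 100 UMIs in beta cells. In all, 18 had a ratio above 1 and 12 below, 2 were higher past the size limit and 1 was lower. Of all genes in beta cells 68.6% had a ratio above 1 and 12.3% passed the limit, so these counts are near the background. Their median log2 ratio of 0.07 equalled that of all genes. The higher ones were E2f2, an activating E2F factor, with 1.82 CPM in the library labelled BcBKO and 1.02 CPM in the flox/flox library (1.79, 1.43 to 2.26), and Ccng1, a cyclin G gene known as a p53 target, with 29.9 and 19.9 CPM (1.5004, 1.42 to 1.58). The lower one was Ccne1, a cyclin E gene that acts after the D-type cyclins, with 1.32 and 1.82 CPM (0.726, 0.587 to 0.896). The activators E2f1 and E2f3 lay just under the limit, at 1.241 each. The INK4 genes Cdkn2b and Cdkn2d, close relatives of Cdkn2c, had ratios of 1.05 and 0.979 in beta cells. Of the proliferation genes, 6 of 17 reached 100 UMIs in beta cells: Birc5, Cdk1, Top2a and Mki67 had ratios of 0.641, 0.643, 0.684 and 0.733, Ube2c 1.45 and Rrm2 1.04, on sums of 5.85 and 6.62 CPM for all 17. The p21 gene Cdkn1a, another p53 target, had 42.2 and 35.3 CPM (1.20).

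Other classes gave other genes. In alpha cells Ccng1 again had the highest ratio (38.8 and 26.7 CPM, 1.45) and Cdkn2d the lowest (14.1 and 17.1 CPM, 0.822). In delta cells the range ran from 0.709 for Rbl2, a relative of Rb1, to 1.27 for Ambra1, whose product takes part in the breakdown of D-type cyclins. In endothelial cells Cdkn1a had the lowest ratio of the list, with 650 CPM in the library labelled BcBKO and 1137 CPM in the flox/flox library (0.571, 0.555 to 0.588), and it was 583 and 944 CPM in the Rgs5/Pdgfrb class (0.617). Cks1b, a small partner of cyclin-dependent kinases, had the highest ratio of the list there, with 9.44 and 6.88 CPM in endothelial cells (1.37) and 14.4 and 7.38 CPM in the Rgs5/Pdgfrb class (1.96). In macrophages Myc had the lowest ratio of the list, with 32.4 and 67.9 CPM (0.477), and Mnat1 the highest, at 1.03. Of all genes tested in macrophages 21.0% were lower past the size limit. The list medians were 0.19 in alpha cells, -0.13 in delta cells, -0.10 in endothelial cells, -0.07 in the Rgs5/Pdgfrb class and -0.16 in macrophages, beside 0.11, -0.01, -0.01, -0.02 and -0.09 over all genes of the same classes. In delta cells 0 of 6 members with at least 100 UMIs passed the size limit, while of all 7274 genes tested there 16.4% passed, 8.08% as higher and 8.32% as lower.

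Of 10 partners of Ezh2 and of menin, 0 passed the size limit in beta cells, where 12.3% of all genes did, and the ratios ran from 0.939 for Rbbp4 to 1.15 for Rbbp7, both histone-binding subunits. Ezh1, the related methyltransferase, had 8.35 and 8.62 CPM in beta cells (0.968), and the core subunits Eed and Suz12 had ratios of 0.973 and 1.06. Ezh1 was lower in delta cells (25.1 and 40.6 CPM, 0.620) and in macrophages (17.3 and 30.0 CPM, 0.575). The highest ratio of this list was 1.13 in each of these classes, for Jarid2. In alpha cells the range ran from 0.851 for Ezh1 to 1.30 for Eed, where 18.2% of all genes passed the size limit. It ran from 0.803 for Men1 to 1.05 for Ezh1 in endothelial cells, and from 0.826 for Eed to 1.11 for Ezh1 in the Rgs5/Pdgfrb class. Bmi1, a Polycomb gene known to repress Cdkn2a in mouse beta cells, had 26.0 and 24.1 CPM in beta cells (1.08).

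**Figure D5:**
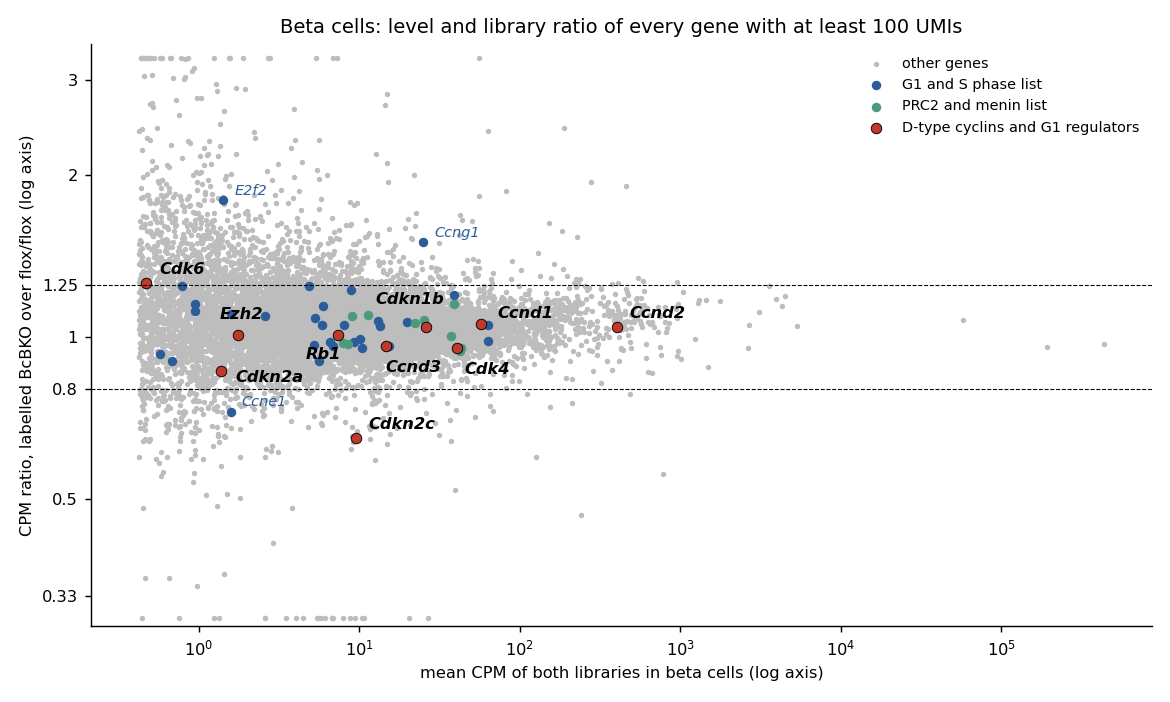
Each point is 1 of 12294 genes in beta cells, placed by its mean CPM over both libraries and its CPM ratio of the library labelled BcBKO over flox/flox, both on log axes, with ratios beyond the axis drawn at its edge and dashed lines at ratios 20% below and 25% above 1. Cdkn2c, at 0.650, and E2f2, at 1.79, lie outside the lines, while Ccnd2 lies at 1.04.

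Over the 12 values of class and library, the gene whose log2 level followed each member most closely was found among 10487 genes with at least 10 CPM in any of them. The points share their library and depth, and the hormone load of each class shapes all of them. Ccnd2 was most like Pla2g12a (Pearson's r 0.949), Cdkn2c most like Lama2 (0.946), Ccnd1 most like Sulf1 (0.996), Rb1 most like Hdac7 (0.997) and Cdk6 most like Pdlim2 (0.984). Without hormone and mitochondrial UMIs the nearest genes were others, such as Mblac2 for Ccnd2 (0.987) and Slc25a5 for Cdkn2c (0.948).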

How the data were processed

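Single-cell 3′ RNA libraries of dispersed mouse islets were analysed, 1 pooled library per group. The deposited files hold raw UMI counts per gene and barcode; the submitters' processing notes name Cell Ranger 3.1.0, Seurat 4.0.0 and mm10, while the file headers name Cell Ranger 6.1.2. Barcodes with at least 500 genes, at least 1000 UMIs and at most 20% mitochondrial UMIs were kept. Beta cells had at least 25% Ins1 and Ins2, at least 10000 UMIs and under 1% each of Gcg, Sst and Ppy. With insulin under 15%, other classes needed 10% Gcg, 5% Sst, 3 UMIs of Plvap and Cdh5, 5 of Rgs5 and Pdgfrb, or 5 of C1qa and C1qb. In all, 595 BcBKO-labelled and 629 flox/flox barcodes were placed in several classes. Apart from these, 320 BcBKO-labelled and 156 flox/flox beta cells also held the marker UMIs of the macrophage rule. For the endothelial rule these were 90 and 75 beta cells, and for the Rgs5/Pdgfrb rule 45 and 30. Doublets were kept; Scrublet marked 177 and 170, left out in an alternative. UMIs were summed per class. Levels have exact Poisson, ratios exact conditional binomial and shares Clopper-Pearson 95% intervals, covering counting error only. Ratios were read for genes with at least 100 UMIs over both libraries. The code was tested on simulated data. Gene positions are from GENCODE, promoters from RefSeq. The members and lists were chosen with earlier results of these data known. All members were named, with the list genes past the size limit in beta cells and the highest and lowest in other classes; further list genes were named after their values were seen. TMM factors came from edgeR 4.0.16 in R 4.3.3, doublet calls from scanpy 1.11.5, intervals from scipy 1.17.1 and figures from matplotlib 3.10.9, with pandas 2.3.3, numpy 2.4.6 and Python 3.11.15.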

Additional observations from a re-analysis of the deposited data

How the results depend on the processing

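No paired analysis was possible because each group is 1 library. In beta cells 2 of 10 members passed the size limit, where 12.3% of all genes did, and such shares follow in brackets. The count became 1 of 10 with totals without hormone and mitochondrial genes (10.8%) or TMM factors (10.8%). It was also 1 of 10 with a pseudocount of 1 CPM (5.47%) or a tighter class rule (12.003%). With a limit 50% above 1 it was 1 of 10, and no share is given for that limit in any class. It was 1 of 9 with barcodes meeting another rule left out (11.98%) or doublets left out (13.3%). With a minimum of 500 UMIs it was 1 of 7 (6.74%), and with cells thinned to 3000 UMIs 0 of 7 (16.1%). In alpha cells the 1 of 7 (18.2%) became 2 of 7 with TMM factors (14.2%) and 3 of 10 with a minimum of 1 UMI (38.5%). It was 0 of 7 with cells weighted equally (21.7%) or the 50% limit, and 0 of 5 with 500 UMIs (7.33%). In delta cells the 0 of 6 (16.4%) became 1 of 4 thinned (19.7%) and 2 of 9 with 1 UMI (35.1%). In endothelial cells the 2 of 9 (12.8%) became 1 of 9 with the pseudocount (10.7%), equal weights (15.1%) or no cycling cells (12.8%). It was 1 of 7 with single-rule barcodes (14.3%) or 500 UMIs (6.04%). It was 0 of 9 with the tighter rule (12.3%) or the 50% limit, and 3 of 10 with 1 UMI (34.1%). In the Rgs5/Pdgfrb class the 1 of 9 (13.9%) became 2 of 8 with the tighter rule (14.4%) and 2 of 10 with 1 UMI (34.9%). It was 0 of 7 thinned (17.8%) or with 500 UMIs (6.91%), and 0 of 9 with the 50% limit. In macrophages the 3 of 7 (26.8%) became 0 of 4 thinned (24.1%), 0 of 7 with the 50% limit and 1 of 2 with 500 UMIs (15.8%). It was 2 of 7 with single-rule barcodes (22.1%), 2 of 6 with the tighter rule (25.4%) and 4 of 7 with TMM factors (24.7%). The beta ratio of Ccnd2 was 0.993 without hormone and mitochondrial genes and 0.994 with TMM factors. That of Cdkn2c was 0.910 thinned and 0.619 to 0.688 under the other alternatives. That of Cdk6 was 0.674 thinned, from 3 and 4 UMIs, and 0.688 in the high-insulin cells. In another thinned draw 7 of 3058 BcBKO-labelled and 2 of 2750 flox/flox beta cells held a Cdk6 UMI. The alpha ratio of Cdkn2c was 1.05 thinned. The median log2 ratio of the G1 and S phase list was 0.083 with TMM factors, 0.079 with the tighter rule and 0.37 thinned in alpha cells, -0.25 with the tighter rule and -0.38 thinned in delta cells, 0.13 thinned in the Rgs5/Pdgfrb class, and -0.29 with 500 UMIs in macrophages, from 1 gene. Thinning leaves few UMIs; other causes were not tested. Settings on insulin share, shared barcodes and the richest barcode were chosen after seeing the data.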
